A study of Mus musculus with 8 samples.

Results

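Fabp6, the ileal bile acid binding protein, split the 6 ovalbumin-fed mice of this study into a low and a high group, which were chosen by this 1 measured value. Peyer's patches, lymphoid organs in the wall of the small intestine, were taken from C3H/Hej mice, an inbred strain, and each mouse was read on its own single-colour Affymetrix array of 45101 probe sets. All mice were gavaged daily for 28 days from 6 weeks of age. The OVA mice, labelled as allergic, received 40 mg/kg of the egg white protein ovalbumin (OVA), and the 2 control mice, female control 7 and male control 8, received normal saline. Of the 8 arrays, 6 came from OVA mice: female OVA 2 and 12 and male OVA 1, 5, 8 and 13. An array was put in the low group if the Fabp6 probe set read under 100 and in the high group if it read above 1000. This gave 2 low arrays, male OVA 5 and male OVA 8, and 4 high arrays, female OVA 2, female OVA 12, male OVA 1 and male OVA 13. The labels do not say from which part of the gut the patches were taken, nor how many were pooled per mouse.

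Fabp6 carries bile acids through the enterocytes of the ileum, the last part of the small intestine, where most bile acids are taken back. Bile acids enter these cells from the lumen through Slc10a2, leave them through the transporter pair Slc51a and Slc51b, and activate the nuclear receptor FXR, encoded by Nr1h4, which drives Fabp6 and the hormone Fgf15. The upper small intestine instead takes up iron and calcium, and peptide hormones, Paneth cell products and detoxifying enzymes also differ in level along the gut. A dissected patch carries the epithelium that covers it, so its RNA can hold both epithelial and lymphoid transcripts.

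The promoters of Fabp6 and of both subunits of the bile acid exporter are shown because these genes were low together. Each run is the 250 bases before the RefSeq start site on GRCm38.p6. Capitals mark, in Fabp6, an inverted repeat of the half-site AGGTNA with 1 base between its copies, the layout of an FXR element, and, in the exporter genes, the half-site AGGTCA on either strand. The Fabp6 promoter lies on the minus strand at chr11:43601563-43601812, the Slc51a promoter on the minus strand at chr16:32487880-32488129 and the Slc51b promoter on the minus strand at chr9:65422774-65423023.
Fabp6: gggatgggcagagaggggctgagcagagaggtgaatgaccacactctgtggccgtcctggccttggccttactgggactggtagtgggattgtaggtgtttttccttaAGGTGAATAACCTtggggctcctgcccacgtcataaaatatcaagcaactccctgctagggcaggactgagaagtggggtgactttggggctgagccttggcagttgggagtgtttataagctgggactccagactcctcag
Slc51a: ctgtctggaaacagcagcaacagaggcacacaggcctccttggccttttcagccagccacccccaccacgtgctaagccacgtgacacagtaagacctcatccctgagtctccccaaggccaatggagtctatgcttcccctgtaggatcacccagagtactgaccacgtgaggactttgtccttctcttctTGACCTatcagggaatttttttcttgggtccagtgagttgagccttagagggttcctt
Slc51b: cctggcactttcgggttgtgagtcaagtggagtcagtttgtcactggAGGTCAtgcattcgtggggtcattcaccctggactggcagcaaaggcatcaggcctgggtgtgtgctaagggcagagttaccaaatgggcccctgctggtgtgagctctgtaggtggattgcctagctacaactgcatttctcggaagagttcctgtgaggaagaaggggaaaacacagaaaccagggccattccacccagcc
The inverted repeat starts 142 bases before the Fabp6 start site, and 6 of 27025 promoters of this length (0.0222%) held it on either strand. Neither copy in Fabp6 reads AGGTCA, so the match depends on the free base N, and its low share is no separate support. The exporter promoters held no inverted repeat. The half-site stood in 13.8% of the same promoters, so a match to it is common, and a match to either motif is a description of these letters.

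The values that chose the arrays were 21.2 in male OVA 5 and 21.7 in male OVA 8, against 2189 in female OVA 2, 2828 in female OVA 12, 1474 in male OVA 1 and 3163 in male OVA 13. No array lay between 21.7 and 1474. The controls, which the rule did not use, read 2974 and 3297, on the high side. Fabp6 itself was left out of every count below. Because a measured value of these arrays chose the groups, all genes of the contrast are described and no p-value is given. A gene was called lower or higher where the 2 low arrays lay on 1 side of all 4 high arrays and the group means differed at least 2-fold, a log2 difference of 1, on the log2(intensity + 4.88) scale, which understates the fold of dim genes. Differences are low minus high, with the SD within the 2 groups (n = 2 and n = 4) as their error.

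Of 11987 genes past the intensity filter, 65 (0.542%) were called lower in the Fabp6-low arrays and 15 (0.125%) higher. Without the size limit the groups lay apart for 1072 genes on the lower side (8.94%) and 917 on the higher side (7.65%). The median difference over all genes was 0.01, with 90% of genes between -0.32 and 0.37, and the median SD within groups was 0.16. Just inside the limit of 2-fold stood Slc51a (-1.01) and Nudt4 (-1.01), and just outside it G6pc and Neu1, whose differences round to the limit. On the higher side Ces2g (1.07) was the nearest inside and Slc37a2 (0.99) the nearest outside. Both low arrays are from males. Set against the 2 high males alone, 74 genes were lower (0.617%), 58 of them among the 65, and 5 were higher (0.0417%), 4 of them among the 15. Without male OVA 5 the counts were 105 lower and 31 higher, without male OVA 8 they were 68 and 122, without male OVA 1 78 and 25, and without male OVA 13 52 and 59.

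**Figure D1:**
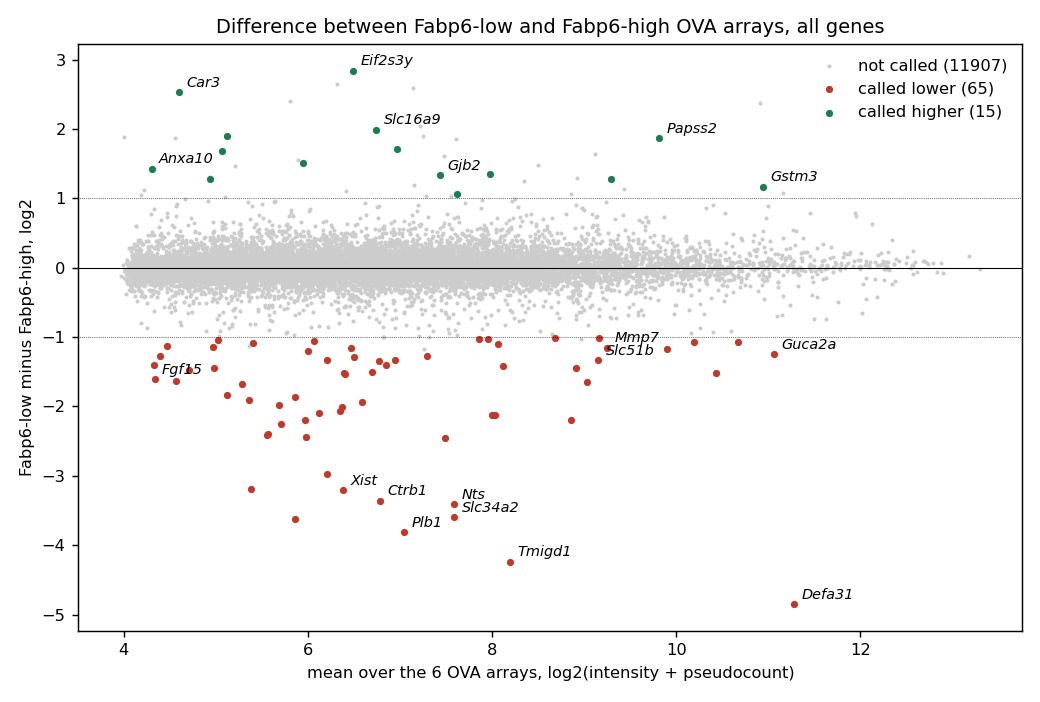
Difference of each gene between the Fabp6-low and Fabp6-high OVA arrays (log2, vertical) against its mean over the 6 OVA arrays (log2, horizontal). Each point is 1 of 11987 genes. The 65 called lower (red) reach -4.85 (Defa31), while the 15 called higher (green) stay within 2.84 (Eif2s3y, on the Y chromosome), and dotted lines mark a 2-fold difference.

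The bile acid genes that Fabp6 works with were lower beside it, but not all of them. Of 7 measured genes of ileal bile acid uptake and sensing, 3 were called lower (beside 0.542% of all genes) and none higher (beside 0.125%). The median difference was -0.87. Fgf15, the ileal hormone that tells the liver to slow bile acid synthesis, read 4.78 in male OVA 5 and 4.63 in male OVA 8, against 42.0, 27.5, 10.8 and 25.7 in female OVA 2, female OVA 12, male OVA 1 and male OVA 13. Both low arrays were below the intensity filter of 11.9 and male OVA 1 was just below it too, and the difference was -1.61 (SD 0.57). Slc51b, the beta subunit of the basolateral exporter, was at 370.0 and 249 in male OVA 5 and 8, against 1001, 744, 529.7 and 892 in the high arrays in the same order, a difference of -1.33 (SD 0.40). Slc51a, the alpha subunit, was at 436 and 288, against 785, 675, 567 and 892, a difference of -1.01 (SD 0.32). Both subunits stayed above the intensity filter in the low arrays, 2.02-fold (Slc51a) and 2.51-fold (Slc51b) below the high group. Nr1h4, the receptor FXR, was at 121 and 71.1, against 195, 172, 128 and 216, so its groups lay apart by 0.07 log2 and its difference of -0.87 (SD 0.38) was under the 2-fold limit. The other measured members overlapped: Nr0b2, a repressor induced by FXR, differed by 0.09 (SD 0.56), and the export pumps Abcc3 and Abcc2 by 0.35 (SD 0.32) and 0.76 (SD 0.52). Slc10a2, the ileal uptake transporter, did not pass the filter, with 11.9 in male OVA 13, 13.0 in male control 8 and 3.25 to 7.42 in the other arrays, so this probe set gives no comparison.

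**Figure D2:**
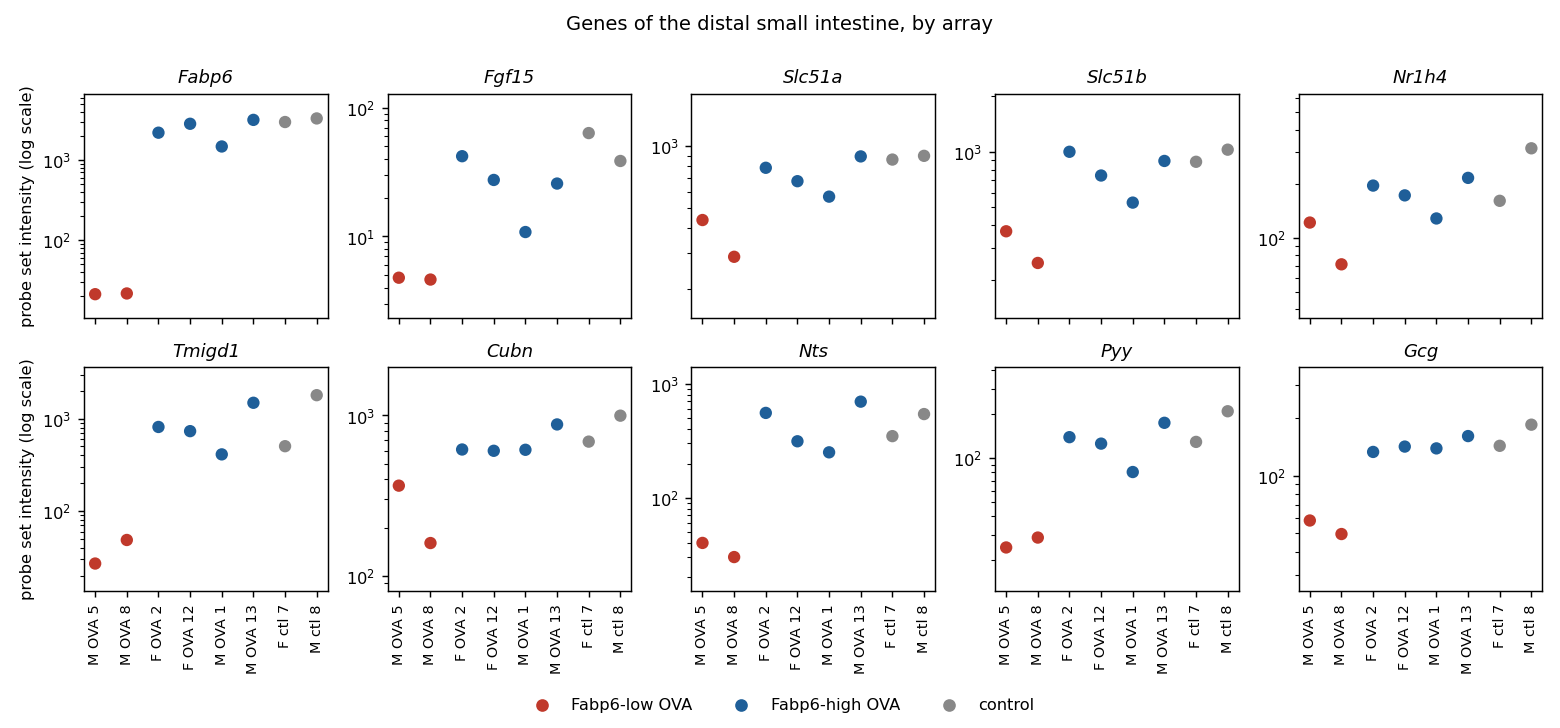
Probe set intensity (log scale) of 10 genes of the distal small intestine on each array, with the 2 Fabp6-low OVA arrays in red, the 4 Fabp6-high OVA arrays in blue and the 2 controls in grey. Fabp6 chose the groups. Red points lie below all blue points in each panel, and male OVA 1 is the lowest blue point for 8 of the 10 genes. The 10 genes are a selection, so this separation is not a result about distal genes as a set. Tmigd1 is in no list, and Amn, Nr0b2, Abcc2 and Abcc3, whose groups overlapped, are not shown.

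Of 15 measured hormone and granule genes of enteroendocrine cells, 3 were called lower, beside 0.542% of all genes. All 3 encode peptides of the distal gut. Neurotensin (Nts), a peptide of ileal endocrine cells that slows gut movement, read 40.2 and 30.2 in male OVA 5 and 8, against 556 in female OVA 2, 313 in female OVA 12, 251 in male OVA 1 and 698 in male OVA 13. Peptide YY (Pyy), a satiety hormone of the ileum and colon, read 24.5 and 28.6, against 139.6, 126, 80.6 and 175. Gcg, the precursor of GLP-1, read 58.2 and 49.4, against 133, 142, 139 and 161. For all 3 hormones the low arrays stood well below every high array, and the differences were -3.41 (SD 0.60), -2.06 (SD 0.40) and -1.34 (SD 0.13). The other 12 endocrine genes were not called. Among them Cck, cholecystokinin of the upper gut, differed by 0.57 (SD 0.39), Ghrl, ghrelin, by 0.68 (SD 0.56), Gip by 0.17 (SD 0.25) and the endocrine granule protein Chga by -0.03 (SD 0.36). The median of the list was -0.03, near that of all genes.

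Of 12 measured genes of vitamin B12 uptake and the distal enterocyte, 3 were called lower (Cubn, Guca2a and Naaladl1), beside 0.542% of all genes. Of the 12, 10 lay below 0, with a median of -0.33. Tmigd1, a membrane protein of epithelial cells that is in no list, read 27.1 and 48.8 in the low arrays and 813, 733, 411 and 1485 in female OVA 2, female OVA 12, male OVA 1 and male OVA 13, a difference of -4.24 (SD 0.70). Cubn, cubilin, the ileal receptor for vitamin B12 bound to intrinsic factor, read 366 and 161, against 614, 603, 611 and 879.5. Its partner Amn read 543 and 264, against 639.8, 441, 609 and 669, so that male OVA 5 lay inside the high group and Amn was not called. Among 17 measured brush border peptidases and disaccharidases 2 were called lower, beside 0.542% of all genes: Naaladl1 (-2.20, SD 0.33) and Xpnpep2 (-1.94, SD 0.37). The groups overlapped for Vil1, villin (-0.19), the aminopeptidase Anpep (-0.35) and lactase, Lct (-0.10). They also overlapped for 2 genes with values above 0, Alpi, intestinal alkaline phosphatase (1.08, SD 0.68), and Tmprss15, the enteropeptidase of the duodenum (1.05, SD 0.80). Guca2a, guanylin, a peptide that regulates fluid secretion, read 1411 and 1013, against 3065, 2709, 2782 and 2846, a difference of -1.25 (SD 0.18). Bcl2l15 (-2.45, SD 0.34), the pore-forming protein Gsdme (-2.19, SD 0.50) and the serine protease Prss30 (-2.12, SD 0.37), all outside the lists, were called lower too.

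Several solute carriers were among the widest differences. Slc5a8, a sodium-coupled carrier of lactate and short-chain fatty acids, read 6.96 in male OVA 5 and 24.4 in male OVA 8, against 203, 134, 86.7 and 170.4. Slc34a2, the sodium phosphate cotransporter of the brush border, read 7.82 and 100.4, against 614, 461, 191 and 671. In both genes male OVA 5 was below the filter and male OVA 8 above it, so the low arrays also differed from each other. Slc1a1, the glutamate and cystine carrier, was the 1 called gene among 12 amino acid and peptide transporters, at -1.33 (SD 0.35). Over all genes 0.542% were called lower. The neutral amino acid carrier Slc6a19 and the peptide carrier Slc15a1 were at -0.13 and -0.09. None of 12 genes of sugar uptake and fructose metabolism was called: the glucose carriers Slc5a1 and Slc2a2 were at 0.11 (SD 0.43) and 0.59 (SD 0.72). The riboflavin carrier Slc52a3 (-1.40) and the magnesium channel Trpm6 (-1.08) were called lower, as were the metallothioneins Mt1 (-1.08, SD 0.29) and Mt2 (-1.17, SD 0.34), which bind zinc.

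Plb1, the brush border phospholipase B, and Fam151a showed a different order of arrays. Plb1 read 9.13 and 31.7 in the low arrays and 446, 379, 206 and 277 in the high arrays, with 376 in female control 7 but 39.5 in male control 8. Fam151a read 12.8 and 14.4, against 117, 90.5, 54.4 and 82.9, with 87.4 and 14.8 in the controls. Kcnj13, a potassium channel, read 6.78 and 14.1, against 86.3, 39.3, 37.7 and 40.7, with 83.6 and 16 in the controls. For these 3 genes male control 8 sat beside the low arrays, although its Fabp6 of 3297 was the highest of all 8 arrays. Across the 65 lower genes both controls lay above both low arrays in 58 (89.2%), where this held for 18% of all genes tested, and in none did both lie below. Across the 15 higher genes both controls lay below both low arrays in 12 (80%), where this held for 25.1% of all genes tested. The called genes were chosen because the low arrays were extreme, so any further array is likely to lie on the other side. The shares over all genes are therefore not a like background, and the controls give no separate support.

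Paneth cells are the antimicrobial secretory cells at the crypt base. All 10 measured genes of the list for Paneth cells and antimicrobial peptides were below 0, with a median of -0.69. Of these genes, 3 were called lower, beside 0.542% of all genes, and 6 had groups apart, beside 8.94% of all genes on the lower side. Not every member of this list is a product of Paneth cells alone. Ang4, an antimicrobial angiogenin, read 832 and 559.8 in the low arrays and 2212, 1545, 2045 and 2096 in the high arrays. Mmp7, matrilysin, which activates defensins, read 384 and 326, against 871, 697, 828 and 778. Lyz1, lysozyme, was close to 0 (-0.06, SD 0.06) and its groups overlapped: it read 6769 and 7441, against 7207, 7244, 7723 and 7347. The third called member of the list, Pnliprp2, is a lipase also made by the pancreas, and its difference of -1.11 (SD 0.51) was -0.96 without male OVA 13, whose pancreatic genes were high. The score of the list, the mean log2 intensity of its genes, was 10.26 and 10.04, against 10.89, 10.65, 10.87 and 10.92. The probe set named for the alpha-defensin Defa31 had the largest difference of all genes, -4.85 (SD 1.38), with 66.2 in male OVA 5 and 982 in male OVA 8, against 5482 to 8635 in the lowest to the second highest high array and 9515 in male OVA 13. Alpha-defensins form a family of near-identical genes, so which members this probe set reads is uncertain. Reg3g, a lectin that binds bacteria, differed between the low arrays themselves, at 1526 in male OVA 5 and 3275 in male OVA 8, against 3719.6, 4434, 3329 and 3612.

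All 14 measured goblet cell genes were below 0 (median -0.28), 6 with groups apart (beside 8.94% of all genes on the lower side), and none was called. The goblet cell score lay apart on the lower side, as did the score of the colon epithelium list. Muc2, the main secreted mucin, read 1851 and 1469.5, against 2739, 2680.1, 2228 and 3003, and Retnlb, an antibacterial goblet cell protein, read 882 and 619, against 1264, 1569.9, 1256 and 1624. Tff3 (-0.23) and Clca1 (-0.22) overlapped. Among 11 measured genes of the list for colon epithelium, 3 were called lower, beside 0.542% of all genes. These were Mptx1, a pentraxin of intestinal epithelium (-2.12, SD 0.44), the acute phase gene Saa1 (-1.40, SD 0.67) and Sycn (-1.05, SD 1.05). Saa1 is dim: it read 5.22 and 6.14 in the low arrays, both below the intensity filter, against 14.3, 51.2, 12.8 and 26.5. It read 25.2 in female control 7 and 337 in male control 8. Sycn, a protein of pancreatic secretory granules, was at -0.45 without male OVA 13. The defining colon genes Car1 and Aqp8 did not pass the filter, with at most 4.35 and 15.7 on any array, whereas Car4, a membrane carbonic anhydrase also used as a colonocyte marker, read 291 to 719 over the 8 arrays and did not separate the groups (-0.21, SD 0.53).

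Genes of the upper small intestine had higher means in the Fabp6-low arrays, but the groups overlapped for most. Of 15 measured genes of the proximal intestine and iron absorption, 14 were above 0 with a median of 0.65, beside 0.01 for all genes. Of the 15, 1 was called higher, beside 0.125% of all genes. Slc40a1, ferroportin, the iron exporter of the enterocyte, read 691 in male OVA 5 and 299.6 in male OVA 8, against 62.8 in female OVA 2, 62.9 in female OVA 12, 106 in male OVA 1 and 500.0 in male OVA 13. S100g, the calcium-binding calbindin of the duodenum, read 674 and 314, against 14.7, 29.1, 37.6 and 1261. Pdx1, a transcription factor of the duodenum and pancreas, read 71.6 and 35.8, against 4.53, 5.58, 7.51 and 40.5. In these 3 genes male OVA 13 lay above male OVA 8, so an array with 3163 of Fabp6 also held high levels of these genes, and the 2 females were the lowest high arrays. Male OVA 13 also had the highest exocrine pancreas score, 10.05, and the part of pancreatic tissue in its values was not tested. Onecut2, a transcription factor, was the called member, at 161 and 87.1, against 18.5, 23.1, 55.9 and 84.5. Reg1, a secreted lectin, read 6297 and 5256, against 181, 733, 2017 and 5559.9. Gata4, a transcription factor of the duodenum and jejunum, read 132 and 80.6, against 77.9, 49.4, 82.4 and 82.4, so only male OVA 5 lay above the others. Male OVA 13 was above male OVA 8 for 13 of the 15 genes, and male OVA 5 was the highest OVA array for 12. Set against the high males alone, the median of the list was 0.31. The list score was 8.27 and 7.57 in the low arrays, 6.39, 6.34, 7.04 and 7.96 in the high arrays, and 7.34 and 7.32 in the controls.

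**Figure D3:**
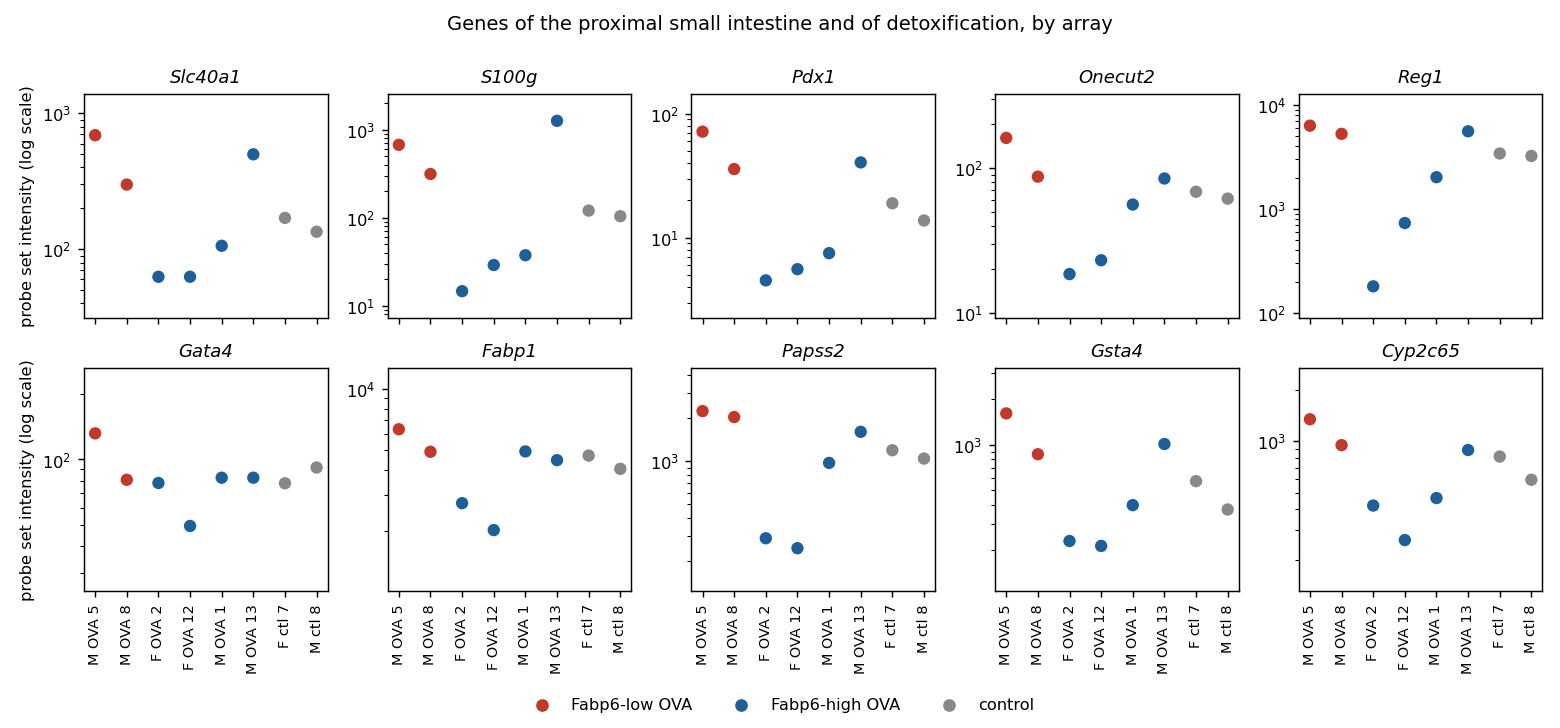
Probe set intensity (log scale) of 10 genes of the proximal small intestine and of detoxification on each array, coloured as Fabp6-low OVA (red), Fabp6-high OVA (blue) and control (grey). Male OVA 5 is the highest OVA array in 9 of the 10 panels, with S100g as the exception, male OVA 13 lies above male OVA 8 in 6, and both females lie below both high males in every panel.

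Of 24 measured transcription factors that pattern the gut, Osr2 and Hoxc8 were called lower (beside 0.542% of all genes) and Onecut2 higher (beside 0.125%). The median was -0.07. Hoxc8, a homeobox gene of the posterior body axis, read 8.43 and 14.7, against 40.8, 49.7, 31.8 and 35.8. Osr2 read 8.84 and 7.93, against 43.1, 34.7, 21.1 and 32.4. Both genes are dim. For Osr2 both low arrays were below the filter of 11.9, so it passed only through the other arrays. For Hoxc8 male OVA 5 was below the filter and male OVA 8 just above it. Cdx2, a general intestinal factor, was not called (-0.44, SD 0.32).

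Among the metabolic lists, detoxifying enzymes had the highest median difference, but their score overlapped between the groups. The score of 6 measured genes of the aryl hydrocarbon receptor and its targets lay apart on the higher side. It was 7.59 and 7.61, against 7.26, 7.06, 7.46 and 7.41, with a median of 0.36 and none called. Of 25 measured genes of xenobiotic metabolism, 3 were called higher (beside 0.125% of all genes) and 23 were above 0. The median was 0.78. Groups lay apart on the higher side for 6 of the 25, beside 7.65% of all genes. Gstm3, a glutathione transferase, read 4027 and 2812, against 1099, 881, 2197 and 2363. Cyp2c65, a cytochrome P450 of the gut, read 1348 and 949.8, against 419.9, 263, 465 and 889. Cyp2c29 was the third called member (1.28, SD 0.73). In each of these male OVA 5 was highest and the females were lowest. Gsta4 read 1610.2 and 864, against 230.1, 214, 398 and 1009.9, and Ugt2b5, a glucuronosyltransferase, 606 and 228, against 57.2, 58.0, 195 and 289, so male OVA 13 passed male OVA 8 for both. The median of the list was 0.31 against the high males alone. Cytochrome and transferase genes have close relatives, and probe sets may read several of them. Outside the list, Papss2, which makes the sulphate donor for sulphation, read 2237 and 2033, against 290.3, 247, 974 and 1605, with the 2 females below the 2 males within the high group. Slc16a9, a carnitine exporter, read 341 and 202, against 27.0, 37.7, 77.1 and 182. Flvcr1, a haem exporter, read 625.1 and 347, against 141, 96.0, 316 and 244. The other metabolic or secreted genes called higher were the glutathione transferase Gsta2 (1.72, SD 1.04), the carboxylesterase Ces2g (1.07, SD 0.49) and alpha-fetoprotein, Afp (1.68, SD 0.79). In these 6 genes, Papss2 included, male OVA 5 was the highest OVA array and a female the lowest.

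Retinoid genes stood next, with 13 of 14 above 0, 5 with groups apart (beside 7.65% of all genes on the higher side) and none called (median 0.44). Adh1, a retinol and alcohol dehydrogenase, read 6546 and 4883, against 2239, 2292, 4818 and 4666. Of 22 genes of lipid absorption in the enterocyte none was called, and the median was 0.14. Both low arrays lay below all high arrays for 1 of them, beside 8.94% of all genes. Fabp2, the fatty acid binding protein of the whole small intestine, overlapped, at 7682 and 7055, against 7628, 7014, 8391 and 7944. Fabp1, the form shared with liver, read 6329.6 and 4906, against 2744, 2024, 4925 and 4462. Its difference was 0.74 (SD 0.54), and only male OVA 1 kept its groups from lying apart. Npc1l1, the cholesterol uptake protein, was at -0.68 (SD 0.27) with groups apart. Fatty acid oxidation genes were above 0 in 16 of 18 (median 0.19, none called; 0.02 against the high males), with Acot1 at 0.93 (SD 0.70). Cholesterol synthesis genes were below 0 in 16 of 19, 8 with groups apart (beside 8.94% of all genes) and none called (median -0.28). Their score was 7.07 and 7.12 in the low arrays, 7.56, 7.71, 7.17 and 7.36 in the high arrays, and 7.00 in female control 7, below all OVA arrays. Male control 8 was at 7.64, inside the range of the high arrays. Oxidative phosphorylation genes had a median of 0.04 with none of 31 called.

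**Figure D4:**
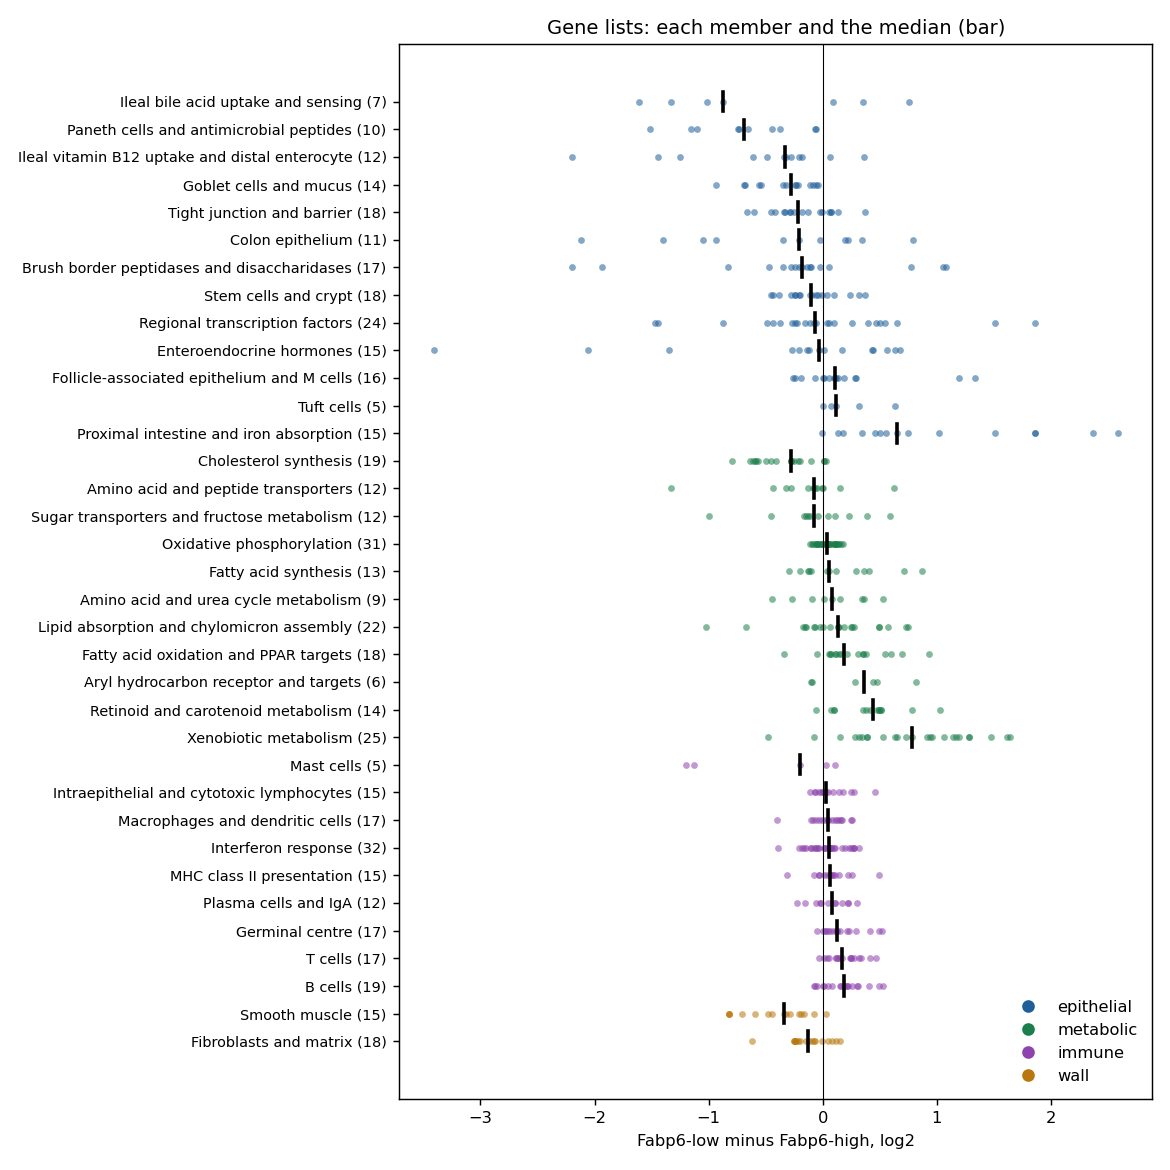
Each point is 1 measured gene of a list, placed by its difference between the Fabp6-low and Fabp6-high OVA arrays (log2), with a black bar at the median and the number of measured genes in brackets. The lists for ileal bile acids (-0.87) and for Paneth cells and antimicrobial peptides (-0.69) have the lowest medians among the epithelial, metabolic, immune and wall lists shown. Xenobiotic (0.78) and proximal (0.65) genes have the highest.

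Of the 9 immune lists, only the mast cell score separated the groups. No member of the lists for B cells, germinal centres, T cells, cytotoxic lymphocytes, plasma cells, macrophages and dendritic cells, MHC class II or the interferon response was called, and their medians lay between 0.02 and 0.19. Set against the high males alone, the medians were 0.38 for B cells, 0.33 for germinal centres and 0.26 for T cells. Those of the other lists just named lay between -0.16 and 0.16. The B cell score was 8.07 in male OVA 5 and 8.85 in male OVA 8, against 8.13, 8.81, 8.28 and 7.92, so the low arrays covered nearly the range of the high arrays. Ms4a1, the B cell surface protein CD20, read 1614 and 2645, against 1704, 2319.6, 1713 and 1308. The T cell score was 6.35 and 6.74, against 6.17, 6.66, 6.38 and 6.19. Fewer cells of a type and less RNA per cell cannot be told apart in such bulk samples. The 2 low arrays thus shared their Fabp6 level and differed in their lymphocyte scores. The follicle-associated epithelium covers the patch and holds the M cells. Of 16 measured genes of its list 1 was called higher, beside 0.125% of all genes. This was Gjb2, connexin 26, at 259 and 385, against 82.6, 136, 146 and 136. The chemokine Ccl20 (0.28, SD 0.35) and the M cell factor Spib (0.29, SD 0.38) were not called. The mast cell score lay lower, at 4.85 and 4.68, against 5.16, 4.86, 5.32 and 5.64, so male OVA 5 and female OVA 12 nearly met. Of the 5 measured mast cell genes 3 were below 0. The protease Mcpt2 was called lower (beside 0.542% of all genes), at 38.2 and 26.6, against 75.6, 41.4, 84.8 and 149. The defining genes Fcer1a, Cma1 and Tpsb2 did not pass the filter. Anxa10, an annexin outside the lists, read 24.8 and 44.0, against 5.11, 10, 12.8 and 10.5, and was called in the males alone as well (1.21).

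Other tissues in the samples moved with single arrays and with the groups, and their part in the differences was not tested. Smooth muscle genes were below 0 in 14 of 15, 10 with groups apart (beside 8.94% of all genes) and none called (median -0.34). Their score was 7.74 and 8.03 on the low arrays, below the 8.22 to 8.44 of the high arrays. Exocrine pancreas genes gave 9 of the 65 lower calls, out of 11 measured in the list, beside 0.542% of all genes. Further lower calls outside that list were the chymotrypsin gene Ctrc (7.39 and 6.25, against 8.53, 10.1, 15.8 and 147), Sycn and Pnliprp2, and 2210010C04Rik, which also peaked in male OVA 13 (9.61 and 12.1, against 23.8, 27.5, 43.0 and 1043). Ctrb1, chymotrypsinogen, read 18.5 and 18.5 in the low arrays, 78.6 in female OVA 2, 71.2 in female OVA 12, 168 in male OVA 1 and 2999 in male OVA 13, with 90.3 and 20.3 in the controls. Its difference of -3.36 was -2.14 without male OVA 13. Male OVA 13 had a pancreas score of 10.05, and the remaining OVA arrays lay between 4.82 and 6.58. Fat genes were high in male OVA 5: Adipoq, adiponectin, read 185 there and at most 3.58 on any other array, and Fabp4 read 1103, with 187 to 281 on the remaining OVA arrays. Car3, a carbonic anhydrase of fat and muscle, was called higher, but the call rests on male OVA 5, at 396, since male OVA 8 read 10.4 and the high arrays 7.14 to 9.46. The calls also held 3 genes that mark sex, Xist on the lower side and Eif2s3y and Kdm5d on the higher side, since no female is in the low group, and all 15 genes called higher had a female as the lowest high array, against 53.9% of all genes.

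**Figure D5:**
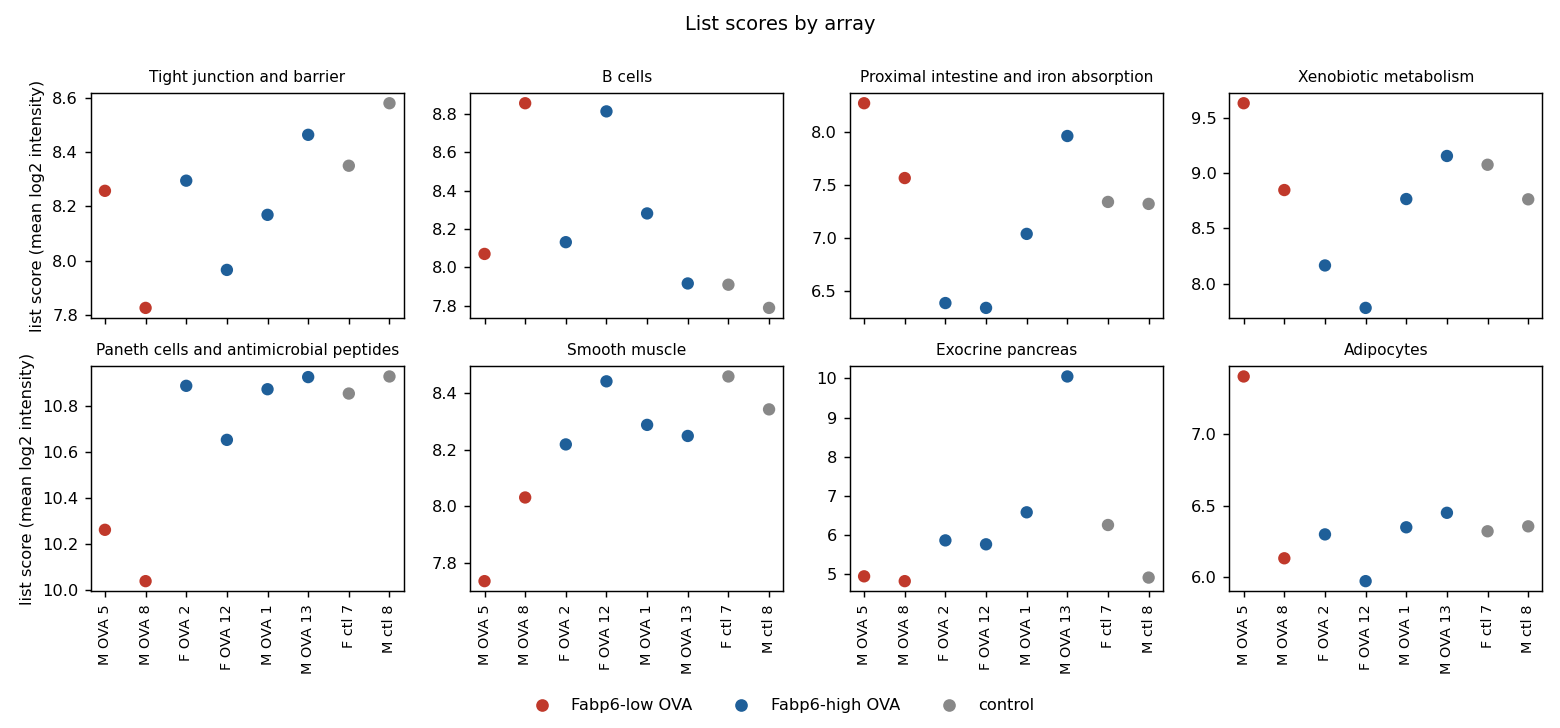
Score of 8 gene lists (mean log2 intensity of their measured genes) on each array, in red for Fabp6-low OVA, blue for Fabp6-high OVA and grey for controls. The Paneth cell and smooth muscle scores of the low arrays lie below all others, the B cell and barrier scores of the 2 low arrays lie far apart, and male OVA 13 (pancreas, 10.05) and male OVA 5 (fat, 7.41) stand alone.

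Epithelial content, read from 18 tight junction and barrier genes, varied within both groups. Their score was 8.26 in male OVA 5 and 7.83 in male OVA 8, against 8.29, 7.97, 8.17 and 8.46, so the groups overlapped. Of the 18 genes 13 were below 0, with a median of -0.22, and 3 had both low arrays below all high arrays, beside 8.94% of all genes. Epcam, the pan-epithelial adhesion molecule, read 2669 and 2205, against 3391, 3124, 3001 and 3510.2 (-0.42, SD 0.13), and the claudins Cldn3 (-0.66, SD 0.30) and Cldn7 (-0.45, SD 0.20) were the other members apart, while E-cadherin, Cdh1, was at 0.07 (SD 0.15). Epcam, Cldn3 and Cldn7 thus lay apart while the score overlapped, and the part of epithelial content in the lower calls was not tested. Relative to this score, a setting chosen after seeing the data, 48 genes were lower, all among the 65, and 54 were higher, including all 15. These counts are not a test of epithelial content. Within the high group, male OVA 1 was the lowest array for 40 of the 65 lower genes (61.5%, beside 16% of all genes) and male OVA 13 the highest for 38 (58.5%, beside 26.6%). The 38 include 13 genes of the pancreas list or named with it above, and of the other 52 lower genes male OVA 13 was the highest high array for 25 and male OVA 1 the lowest for 40. Male OVA 8 lay below male OVA 5 for 36 of the 65. Of the 65 genes, 9 had both low arrays below the intensity filter and passed it only through the other arrays. These were Bex1, Cel, Cela2a, Cela3b, Cpb1, Ctrc, Fgf15, Osr2 and Saa1.

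The lymphoid tissue label was checked against marker genes. The B cell genes Cd79a, Cd79b and Ms4a1 were above the filter on all 8 arrays, while the brain genes Snap25 and Gfap stayed below it, at most 11.5 and 10.9, although the extraction text in the labels names brain cortex of a patient. Other genes of the neuron and glia list passed the filter: Mbp, a myelin protein gene, read 158 to 204 over the 8 arrays, and Syt1 and Ret read 24.1 to 36.0 and 14.9 to 22.5. None of these 3 separated the groups. Array trimmed means (2 to 98%) ran from 65.1 to 68.2, and with 2 and 4 arrays per group the spread is known only roughly.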

How the data were processed

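The authors deposited 1 normalized probe set intensity per array, on a linear scale, made with MAS5 according to the submitters' processing notes. Its settings were not given in the sources used here. A pseudocount of 4.88, the 25th percentile of the table, was added before log2, with no rescaling. AFFX controls (64 probe sets) were dropped, and 22518 probe sets with a mean log2 above the overall median (an intensity of 11.9) were kept. Of 45101 probe sets, the platform annotation gave 1 gene symbol to 34958, several to 932 and none to 9211. A gene was read from the brightest probe set that names it alone.

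OVA arrays were grouped at the Fabp6 limits of 100 and 1000. Members and lists were chosen with earlier results of these data known. No test was run, because a value of these arrays chose the groups. The pool for naming held the measured ileal bile acid genes, the 15 genes on each side with the widest gap, and sex chromosome genes. It also held the 4 members of each of 43 lists with the largest difference (617 of 770 list genes were measured). In lists about gut region, members below the filter could be named as well. Only part of this pool is printed above, so the genes shown are a selection. Of the 193 measured genes of the pool, 66 had a further probe set that passed, of opposite sign in 2. Named after their values were seen were Anpep, Car3, Car4, Cck, Cdh1, Ces2g, Chga, Clca1, Ctrc, Cyp2c29, Fabp2, Flvcr1, Gata4, Gip, Gsta2, Gstm3, Kcnj13, Lct, Lyz1, Ms4a1, Mt1, Mt2, Papss2, Slc15a1, Slc16a9, Slc34a2, Slc52a3, Slc5a1, Slc6a19, Tff3, Trpm6 and Vil1, as were Nudt4, Neu1, Slc37a2, 2210010C04Rik, Cd79a, Cd79b and the below-filter markers of other cell types. Each mouse is 1 replicate with 1 array. The call rule was tested on simulated data. Alternatives were other pseudocounts, filters and scalings, the mean of probe sets, sex, added controls, each array left out and, chosen after seeing the data, values relative to the barrier score. Python 3.11.15, NumPy 2.4.6, pandas 2.3.3 and matplotlib 3.10.9 were used.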

Additional observations from a re-analysis of the deposited data

Results flagged for a closer look

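In 127 checks of list scores and named genes, 9 single arrays stood apart from the rest of their group by Dixon's criterion, where chance gives about 1 in 20. Among the 4 Fabp6-high arrays, male OVA 13 had a colon epithelium score of 7.69, against 7.10 to 7.19 in the others. Its Cubn intensity was 879.5 (others 603 to 614), its Slc1a1 intensity 216 (others 142 to 151) and its Sycn intensity 141 (others 20.7 to 24.4). Female OVA 12 had a score of 7.76 for sugar transporters and fructose metabolism, against 8.74 to 8.80 in the other high arrays. Gjb2 read 82.6 in female OVA 2 and 136 to 146 in the other high arrays. Among all 6 OVA arrays, the exocrine pancreas score was 10.05 in male OVA 13 (others 4.82 to 6.58), the adipocyte score 7.41 in male OVA 5 (others 5.97 to 6.45) and the plasma cell and IgA score 8.21 in female OVA 2 (others 8.38 to 8.46).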

How the results depend on the processing

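The 65 genes called lower stayed within 1.5 times that count under other pseudocounts, scalings, filters and the mean of probe sets, with sex as a covariate, in males alone, with the controls added and relative to the barrier score. Leaving out 1 array gave 52 to 105, the highest without male OVA 5. The 15 called higher were less stable: 9 with a filter at the 75th percentile, 5 with sex as a covariate, 5 in male OVA arrays only and 54 relative to the barrier score. Leaving out 1 array gave 14 to 122: 25 without male OVA 1, 31 without male OVA 5, 122 without male OVA 8 and 59 without male OVA 13. Without male OVA 5 or 8 the low group is 1 array, and fewer arrays separate more easily. The groups' scores lay apart in 9 of 43 lists, in 14 in males only, in 18 relative to the barrier score, and in 9 to 25 with 1 array left out (25 without male OVA 5, 24 without male OVA 8). Both controls lay above both low arrays for 58 of the lower genes, for 35 relative to the barrier score, and for 47 to 101 with 1 array left out. Other causes were not tested. No called gene and no separated list changed sign under these alternatives: single genes moved by more than their SD in 156 of 3233 recalculations and list medians in 48 of 727. Dim genes near the filter of 11.9 limit what can be said of Fgf15, Hoxc8, Osr2, Saa1 and Slc10a2. No paired analysis was made, since the sample titles name no pairs and the low and high groups share no replicate number.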
